A study of Mus musculus with 16 samples.

Results

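Among the cloned lines of this mouse hippocampal cell series, 2 sets of 3 clones differed in the level of 1994 genes, and the division did not follow genotype. Clone set A comprised e1, e4 and ko1-4, and clone set B comprised ko2-3, rescuem2 and rescuem3, named here as in the headers of the count table. A gene was kept when each of the 6 libraries of 1 set lay above each of the 6 libraries of the other, in counts scaled to library size by the trimmed mean of M-values (CPM). Of 53333 gene rows, 16223 passed a filter on low counts and were compared. In set A 1062 genes were higher (A-high genes, 6.55% of those compared) and in set B 932 were higher (B-high genes, 5.74%). The genes were thus selected on these same levels in the 12 libraries, and every difference between the sets is given below as a description with no test. The split depended on the scaling: with library totals alone the counts were 387 A-high and 1582 B-high genes, a share of 19.7% A-high in place of 53.3%, because that scaling moved the median difference of all genes from -0.0048 to -0.27 (log2, A minus B). Leaving out a clone can only add genes under this rule, and the counts rose for each clone left out. They rose most without e4 (1701 A-high and 1532 B-high genes) and then without ko2-3 (1515 and 1495). Without any other clone they were 1260 to 1393 A-high and 1128 to 1306 B-high genes.

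All 16 libraries came from mHiPPoE-2, a transformed line of mouse hippocampal neurons (strain Crl:CFW(SW)-024), grown without treatment in medium with serum, with 2 libraries a line. WT was unedited. METTL3 KO was 1 clonal isolate edited by Cas9 at the gene for the catalytic subunit of the m6A RNA methyltransferase. The Cas9 controls were 2 clonal isolates that received no guide RNA, RBM45 KO was 2 clonal isolates edited at the gene for the RNA-binding protein RBM45, and KO rescue was 2 clonal isolates of edited cells that also carried F-HA-tagged RBM45 with a changed guide site. Set A therefore held 1 RBM45 KO clone (ko1-4) and, by elimination since no label spells their names, both controls (e1 and e4), while set B held the other RBM45 KO clone and both rescue clones. Each clone is the unit of replication here (3 against 3). The rescue clones came from edited cells, so all 3 clones of set B had been edited, as had ko1-4 of set A. Whether clones of a set share a founder was not tested, and the 3 clones of a set are not known to be independent. Nothing in the labels says that the 2 libraries of a line were separate cultures, and the p-values below describe no more than the spread among the libraries at hand.

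A clone descends from a lone founder cell, and whatever chromosome content and stable expression state that cell had is passed to all of its descendants. Transformed mouse lines are often heterogeneous in both respects. Imprinted and X-linked genes are among those known to keep an on or off state through many divisions. DNA copy number was not measured.

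Library totals ran from 7193908 to 18751324 counts, and 12 genes held 58.6 to 70.6% of the counts in set A and 53.3 to 65.8% in set B. The share of unmapped fragments was 31 to 39.4% in set A, 30.6 to 35.3% in set B and 41.6 to 49.9% in the WT and METTL3 KO libraries; its part in where those 4 libraries lay was not tested. Rbm45 was at 11.1 and 14.2 CPM in WT, 16 and 16.7 in e1, 12.8 and 13.4 in e4, 10.8 and 7.68 in ko1-4, 5.7 and 8.04 in ko2-3, 25.9 and 22.3 in rescuem2, 21.1 and 23.3 in rescuem3 and 10.6 and 10.9 in METTL3 KO. The 4 libraries of the rescue clones were the highest and a ko2-3 library the lowest, all of set B, and the gene was not among the 1994 genes. METTL3 KO lay at the level of the first ko1-4 library (10.8) and below both WT libraries. Mettl3 was at 11.7 and 8.79 CPM in WT and 3.71 and 3.35 in METTL3 KO. Of 18 neuron markers, 11 stayed under a mean of 1 CPM, with the neuronal nuclear protein gene Rbfox3 at 0 to 0.0679 CPM and the synaptic gene Snap25 at 0 to 0.0641 CPM in sets A and B, and 7 were above it, Map2 among them (41.2 to 138 CPM). The intermediate filament genes Vim and Nes, of mesenchymal and progenitor cells, were high in both sets (806 to 1406 and 173 to 328 CPM).

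The promoters of 4 of the genes with the widest separation are shown first, because in each the libraries of the low set held at most 2.21 CPM. Each line gives the 250 bases before the RefSeq transcription start (GRCm38.p6), 5′ to 3′ on the gene's strand. Capitals mark letters that match any of 7 motifs. These are TATAAA for the TATA-binding protein, CCAAT for nuclear factor Y, GGGCGG for the SP factors, TGANTCA for the AP-1 proteins, CANNTG for helix-loop-helix factors, TGACGTCA for the cyclic AMP response factors and GGAATG for the TEAD factors, searched on both strands and allowed to overlap. Parvb lies at chr15:84231793-84232042 on the plus strand, and Col6a3 at chr1:90843972-90844221, Stox2 at chr8:47352349-47352598 and Hdx at chrX:111697080-111697329 on the minus strand.
Parvb: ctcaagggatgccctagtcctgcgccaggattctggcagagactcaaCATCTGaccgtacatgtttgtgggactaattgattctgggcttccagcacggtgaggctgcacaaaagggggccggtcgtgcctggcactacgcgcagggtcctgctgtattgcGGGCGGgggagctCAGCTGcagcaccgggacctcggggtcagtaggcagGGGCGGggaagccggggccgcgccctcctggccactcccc
Col6a3: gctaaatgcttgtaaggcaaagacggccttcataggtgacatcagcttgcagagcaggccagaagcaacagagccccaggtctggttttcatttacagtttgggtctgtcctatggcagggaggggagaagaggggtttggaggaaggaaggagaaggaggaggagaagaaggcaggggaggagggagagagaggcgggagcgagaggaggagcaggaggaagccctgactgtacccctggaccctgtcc
Stox2: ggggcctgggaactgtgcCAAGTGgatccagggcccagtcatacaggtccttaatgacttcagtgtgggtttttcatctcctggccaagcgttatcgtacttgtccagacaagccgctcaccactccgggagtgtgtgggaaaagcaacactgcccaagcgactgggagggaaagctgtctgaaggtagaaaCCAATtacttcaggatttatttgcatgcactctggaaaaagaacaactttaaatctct
Hdx: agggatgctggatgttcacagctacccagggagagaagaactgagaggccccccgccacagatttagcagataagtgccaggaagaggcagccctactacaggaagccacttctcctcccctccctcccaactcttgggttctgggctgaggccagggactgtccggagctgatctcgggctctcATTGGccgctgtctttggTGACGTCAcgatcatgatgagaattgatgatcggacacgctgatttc
Parvb held 2 GGGCGG and 2 CANNTG matches, Stox2 1 CCAAT and 1 CANNTG, Hdx 1 CCAAT and 1 TGACGTCA, and no match was found in the Col6a3 window. A match is a description of the letters and not a bound site.

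The genes most sharply higher in set A included genes of adhesion and matrix, membrane proteins, and signalling and nuclear genes. Parvb (ENSMUSG00000022438), which encodes the focal adhesion adaptor beta-parvin, was at 43.4, 52.3 and 108 CPM (lowest, median and highest library) in set A and at 0, 0.0949 and 0.252 in set B. Its 6 libraries of set B held 9 fragments in all, against 5152 in set A. WT lay with set A (66.6 and 66.3 CPM), as did METTL3 KO (78.4 and 79.5), so set B stood apart from every other line. Col6a3 (ENSMUSG00000048126), the alpha 3 chain of collagen VI, was at 45.9, 90.1 and 116 CPM in set A and 0.772, 1.32 and 2.21 in set B. Here both WT libraries (5.76 and 20.7 CPM) and both METTL3 KO libraries (8.78 and 13.9) fell between the sets.

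Other A-high genes had the same form. Emilin1, an elastic fibre glycoprotein, was at 10.1 to 26.5 CPM in set A and 0 to 0.385 in set B. Pkp1, the desmosomal plaque protein plakophilin 1, was at 28.4 to 58.1 and 3.01 to 5.08 CPM. Both genes belong to the structural group, and for both the highest library of set B was well under the lowest of set A. Among membrane proteins and receptors, the water channel Aqp1 was at 23.1 to 61.9 CPM in set A and 0.128 to 2.1 in set B. The lysophosphatidic acid receptor gene Lpar1 was at 6.36 to 11.3 and 0.0839 to 0.386 CPM. The zinc-sensing receptor gene Gpr39 was at 5.38 to 10.2 and 0.0839 to 0.402 CPM. In none of the 3 did a library of set B come near set A. Signalling and nuclear genes of the same kind were the cyclic AMP phosphodiesterase Pde8a (31.3 to 41.6 against 3.82 to 4.68 CPM) and the transcription factor Runx3 (14.1 to 18 against 0 to 0.419). A total of 3 counts corresponds to 0.157 to 0.323 CPM in these 12 libraries, so levels under that are at the limit of detection. The phospholipid-binding gene Anxa8 was at 31.8 to 60.2 and 0.717 to 2.95 CPM. The last of the 12 A-high genes of widest gap were the atypical MAP kinase gene Mapk4 (2.87 to 5.09 against 0 to 0.0671 CPM) and the repressor gene Bcl6b (2.48 to 5.38 against 0 to 0.0641), each with at most 2 fragments in all of set B.

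The genes most sharply higher in set B included several transcription factors. Stox2 (ENSMUSG00000038143), a storkhead-box winged-helix factor, was at 12.9, 19.2 and 20.9 CPM in set B and 0, 0.13 and 0.313 in set A. WT lay between (5.9 and 2.4 CPM) and METTL3 KO above both sets (46.8 and 41.2 CPM). Stox2 was thus on in METTL3 KO and set B and near 0 in set A. Hdx (ENSMUSG00000034551), an X-linked divergent homeobox gene, was at 4.6, 7.04 and 7.21 CPM in set B and 0, 0 and 0.0623 in set A, with WT at 0.864 and 0.499 and METTL3 KO at 0.112 and 0.183. The transcription factor gene Dach1 was at 2.43 to 6.12 CPM in set B and 0 to 0.0623 in set A.

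Several B-high genes encode ligands, matrix and cytoskeletal proteins. Alkal1, a secreted ligand of the ALK and LTK receptor kinases, was at 50.8, 78.5 and 134 CPM in set B and 3.55, 6 and 8.41 in set A. Its levels in the rescue clones (76.1 to 134) exceeded those in ko2-3 (50.8 and 58.5), while WT (2.02 and 7.19) and METTL3 KO (0.788 and 0.488) did not leave the range of set A upwards. Lama2, the laminin alpha 2 chain, was at 23.1 to 58.5 CPM in set B and 0.0994 to 3.24 in set A. Within set A it was lowest in e4 (0.0994 and 0.611 CPM). The actin regulator Coro1a was at 12.5 to 14.8 CPM in set B and 0.261 to 1.29 in set A. The phospholipid flippase gene Atp8b1 was at 9.23 to 12.3 and 0.215 to 0.795 CPM. The neuronal RNA-binding protein gene Ralyl was at 6.29 to 14.7 and 0.215 to 0.888 CPM, but its difference was -0.88 in exon bins, against -3.23 over the gene body (log2). All 3 were detected in set A, at low levels. The formin gene Fmn2 (2.52 to 5.96 against 0 to 0.0863 CPM) and the X-linked Armcx1, which encodes an armadillo-repeat protein of mitochondria (2.27 to 2.95 against 0 to 0.0522), were nearly undetected there. Peg3, a paternally expressed zinc-finger gene, had no fragment in any library of set A and 3.52 to 6.07 CPM in set B, with WT at 0.72 and 0.2 CPM.

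**Figure D1:**
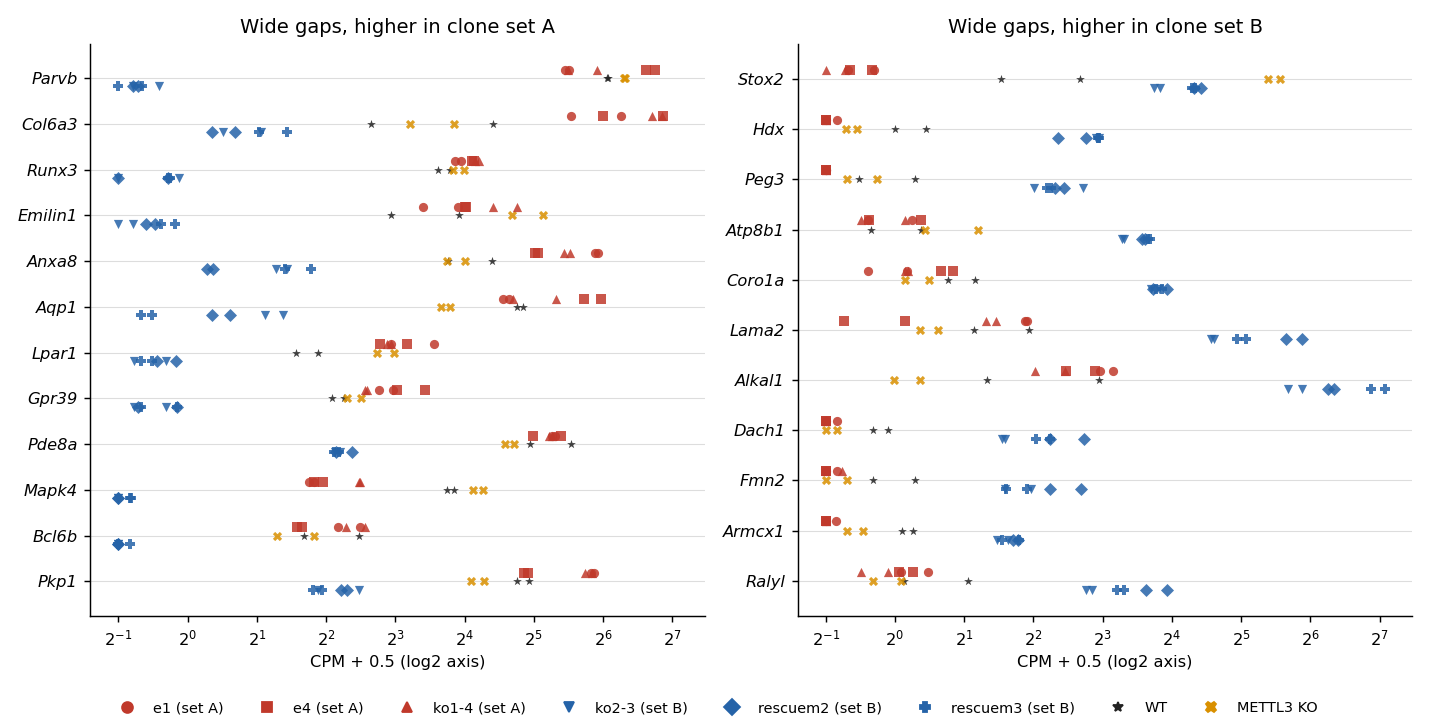
Level of 12 A-high (left) and 11 B-high (right) genes of wide gap in each library, as CPM + 0.5 on a log2 axis; red symbols are set A, blue set B, black WT and orange METTL3 KO. Every red point lies above every blue point on the left and below on the right, by construction, while black and orange points fall on the side of set A, between the sets or, for Stox2, beyond set B.

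These 23 genes were ranked by the gap, which is the log2 ratio of the lowest library of the high set to the highest of the low set after adding 0.5 CPM. The gap was 2.37 to 5.87 for the 12 A-high genes and 2.29 to 4.04 for the 11 B-high genes. Both WT libraries lay between the sets in 11 of the 23, on the side of set A in 5 and on the side of set B in none. In 12 of the 23 the gene overlaps a gene on the other strand, as do 50.2% of all genes compared. The reads of such a pair cannot be told apart with a library kit that does not mark strand. Exon-bin reads alone separated the sets in all 23.

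Separation was narrow for most of the 1994 genes. The median absolute difference on the log2(CPM + 0.5) scale was 0.75 for A-high genes (1.68-fold) and 0.79 for B-high genes (1.73-fold), against 0.21 for all genes compared. The gap was at least 2-fold for 75 A-high and 94 B-high genes and at least 4-fold for 21 and 26. The genes just inside the rule were the cytokine receptor gene Il6st, with 72.3 CPM in both the highest library of set A and the lowest of set B, and the caspase gene Casp6 with 1.93 CPM on both sides. Just outside were the vesicle-tethering gene Trappc11 (16.3 CPM on both sides) and the syntaxin gene Stx4a (10.9). Within set B the clone whose library stood nearest to set A was most often ko2-3, in 43.6% of A-high and 46.2% of B-high genes. Within set A the clone nearest to set B was most often e4 for A-high genes (36.7%) and e1 for B-high genes (39.1%). The median gene spanned 27200 bp (A-high) and 35200 bp (B-high), against 19100 bp for all genes compared, and 80.4% and 80.6% were protein coding, against 70.9%.

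The difference was present in exon and intron reads. Exon bins, counted apart from gene bodies, separated the sets in 799 of 998 A-high genes with exon counts (80.1%) and 642 of 859 B-high genes (74.7%). Introns separated them in 239 of 683 A-high (35%) and 260 of 594 B-high genes (43.8%). In 7 of the genes of wide gap shown above, the exon difference on the log2(CPM + 0.5) scale was more than 1.5-fold away from that of the gene body. It was smaller for Gpr39 (1.88 against 3.35), Mapk4 (2.01 against 2.99), Hdx (-2.80 against -3.78), Dach1 (-1.65 against -3.04), Fmn2 (-1.92 against -2.93) and Ralyl (given above), and larger for Pde8a (4.02 against 3.05). Among genes outside the 1994, exon bins separated the sets in 3.22% and introns in 1.19%. The sign of the intron difference was that of the gene in 667 of 683 A-high and 593 of 594 B-high genes. The counts of gene bodies include the same introns and exons, so these values are not independent of the rule.

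The 1994 genes were unevenly spread over the chromosomes. On chromosome 1, 264 of 1078 genes compared were A-high (24.5%) and 29 were B-high (2.69%). On chromosome 15, 20.1% were A-high and 3.77% B-high. On chromosome 18, 19.3% were B-high and 8.84% A-high. On the remaining chromosomes the A-high share ran from 1.57% on chromosome 7 to 7.61% on chromosome 19, and the B-high share from 2.54% on chromosome 19 to 9.46% on chromosome 14, leaving out the 6 genes of the Y, none of which separated the sets. On chromosome 7 the genes of e4 had a median of -0.49 relative to WT (log2), against -0.0047 in e1 and 0.07 in ko1-4.

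**Figure D2:**
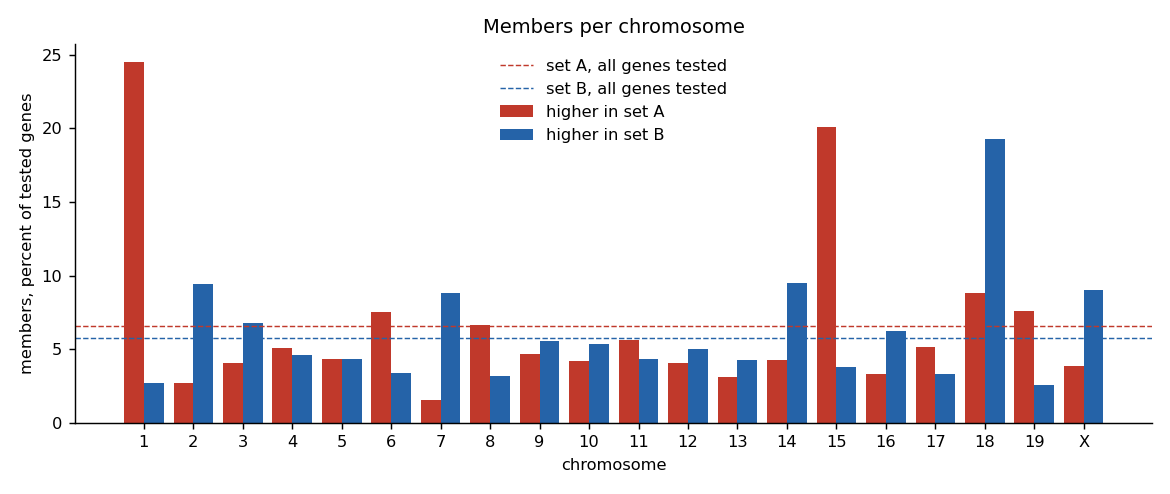
Share of the compared genes of each chromosome (percent) that were higher in set A (red) or in set B (blue), with dashed lines at the shares over all genes compared (6.55% and 5.74%). Chromosomes 1 and 15 have the highest A-high shares (24.5% and 20.1%) and chromosome 18 the highest B-high share (19.3%).

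Genes were then read in chromosome order in windows of 10, and 5 stretches in which neighbouring genes differed the same way were marked off after their values were seen. Chromosome 1 as a whole had a median difference of 0.34 (log2, A minus B), and 83.2% of its genes were higher on average in set A. The middle of chromosome 2 (77009902 to 106974424, GRCm38) had a median of -0.70 over 128 genes, with 36 B-high and 0 A-high. The distal part of chromosome 15 (73090392 to 86498503) had a median of 0.41 over 230 genes, with 88 A-high genes (38.3%). Parvb lies in that stretch, and its difference was far beyond the median there. On chromosome 18 the stretch from 42053667 to 75395935 had a median of -0.50, with 74 of 171 genes B-high (43.3%), and the stretch from 75431224 to 90592528 a median of 0.81, with 26 of 51 A-high (51%). The 2 stretches of chromosome 18 adjoin, and the direction turned between neighbouring windows: the last window of the middle stretch was at 0.79 in ko2-3, 0.86 in rescuem2 and 0.82 in rescuem3 relative to WT (log2), and the next at -0.76, -0.82 and -0.72.

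These stretches held 527 of the 1994 genes (26.4%) and 10.2% of the genes compared. They held 383 of the A-high genes (36.1%) and 144 of the B-high genes (15.5%). Outside them 679 genes were A-high (4.66%) and 788 B-high (5.41%), with a median difference of -0.02. Genes of the stretches that did not meet the rule were shifted the same way, with medians of 0.26 on chromosome 1, -0.58 on chromosome 2, 0.26 on chromosome 15, -0.33 in the middle of chromosome 18 and 0.53 at its distal end. With library totals as the scaling, over genes of at least 2 CPM on average, the median difference went from 0.40 to 0.12 on chromosome 1, 0.46 to 0.17 on chromosome 15, 0.88 to 0.61 at the distal end of chromosome 18, -0.73 to -1.02 on chromosome 2, -0.51 to -0.80 in the middle of chromosome 18, and -0.02 to -0.30 outside the stretches.

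The lines did not contribute equally to each stretch. Relative to the WT mean, and over genes of at least 2 CPM on average, the libraries of e1 and ko1-4 had chromosome 1 medians of 0.40 to 0.49 (log2), those of e4 0.19 to 0.22, METTL3 KO 0.10 to 0.12 and set B -0.07 to -0.02. Chromosome 1 was thus higher in set A than in WT, and set B was near WT. On chromosome 2 the middle stretch was below WT in e1 and ko1-4 (-0.38 to -0.34) and above WT in e4 (0.34 and 0.42), METTL3 KO (0.30 and 0.30) and set B (0.54 to 0.64). By these medians e4 lay nearer to set B than to the other 2 clones of its own set. At the start of the stretch this was not so. In the windows from 76406508 to 83883486, e4 was at -0.08 and 0.04, e1 at 0.13 and 0.11 and ko1-4 at -0.02 and 0.15. Set B was at 0.445 to 0.70 there. On chromosomes 15 and 18 it was set B that departed from WT. Its libraries were at -0.58 to -0.36 in the chromosome 15 stretch, where the other lines ran from -0.21 to 0.22. They were at 0.54 to 0.62 in the middle of chromosome 18, where the others ran from -0.12 to 0.14, and at -0.84 to -0.66 at its distal end, where the others ran from -0.02 to 0.25.

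**Figure D3:**
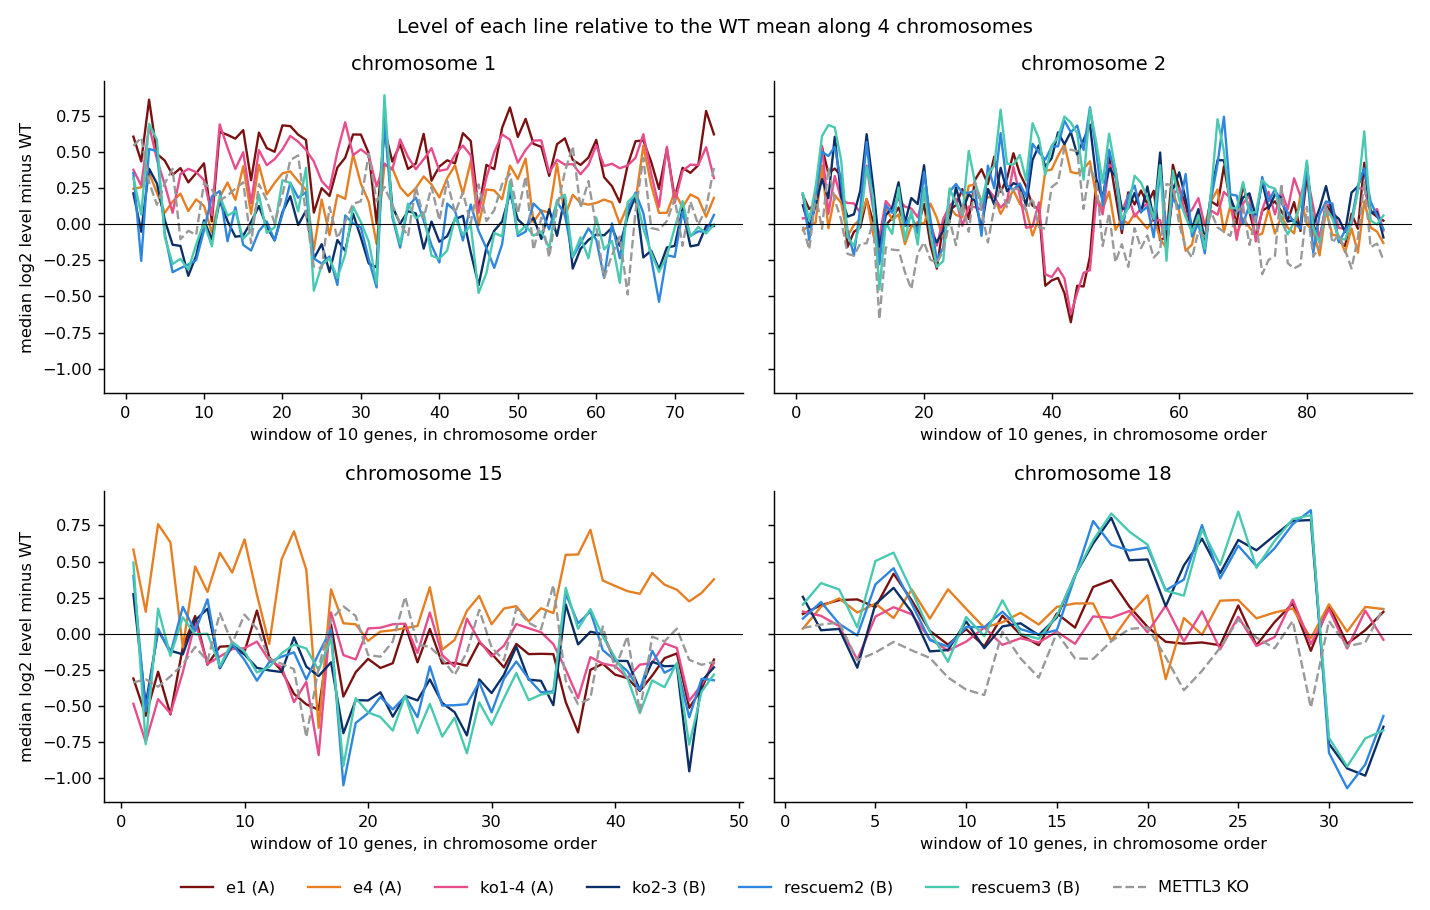
Median level of each line minus the WT mean (log2) in windows of 10 genes along chromosomes 1, 2, 15 and 18, with METTL3 KO dashed. Red and pink lines (e1, ko1-4) run above WT along chromosome 1 and drop in the middle of chromosome 2, and the 3 blue and green lines of set B step from between 0.79 and 0.86 to between -0.82 and -0.72 near the distal end of chromosome 18.

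On the X chromosome the widely separated genes were mostly B-high. A gap of at least 2-fold was found for 11 B-high genes of the 467 X-linked genes compared (2.36%), against 94 of all genes (0.579%), and for 1 A-high gene. Hdx, Armcx1, Armcx2, Armcx4, Itm2a, Ptchd1, Nexmif and Dmd were among them, named after their values were seen. Armcx2, of the same family of mitochondrial armadillo-repeat genes as Armcx1, had medians of 0.589 CPM in set A and 30 in set B, with a WT mean of 9.47. Dmd, the dystrophin gene, had medians of 2.58 and 11.6 CPM and a WT mean of 4.55. In all 11 the WT mean lay between the medians of the 2 sets, but both WT libraries lay between the ranges of the sets in only 8. Both METTL3 KO libraries lay on the side of set A in 6. For Nexmif they lay on the side of set B, with a mean of 5.24 CPM against a set B median of 2.57.

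The WT and METTL3 KO libraries took no part in the rule, although the filter on low counts and the scaling used all 16 libraries. Their place is read against ranges of the sets that the rule itself selected. In each gene a library was placed in or beyond the range of set A, between the sets, or in or beyond the range of set B. Among A-high genes the WT libraries lay on the side of set A in 61.4% and 67.7%, and on the side of set B in 21.3% and 13.8%. Among B-high genes they lay on the side of set A in 62.4% and 71.1%, and on the side of set B in 20% and 11.3%. METTL3 KO lay on the side of set A in 55.7% and 55.7% of A-high and 60.2% and 58.9% of B-high genes, and on the side of set B in 24.6 to 26.5%. The difference between WT and METTL3 KO in these shares was not tested.

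**Figure D4:**
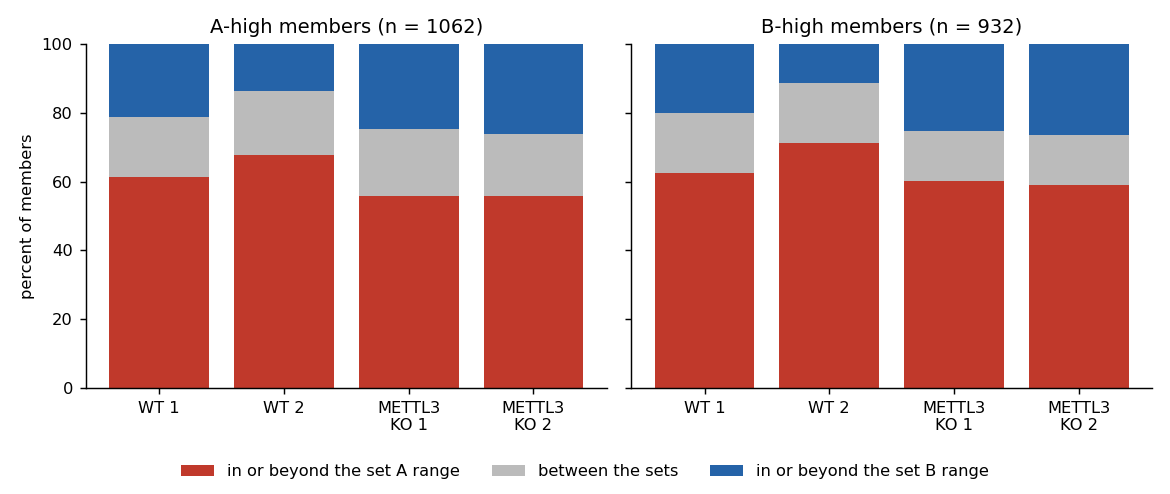
Share of the A-high genes (left, n = 1062) and B-high genes (right, n = 932) in which each WT and METTL3 KO library lay in or beyond the range of set A (red), between the sets (grey) or in or beyond the range of set B (blue). In every bar the red share is the largest, from 55.7% to 71.1%.

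Both WT libraries were on the side of set A in 1052 of the 1994 genes (52.8%) and on the side of set B in 150 (7.52%). Both METTL3 KO libraries were on the side of set A in 1017 (51%) and on that of set B in 395 (19.8%). On a line where the mean of set B is 0 and that of set A is 1, the median position of the WT mean was 0.861 over all 1994 genes, and that of METTL3 KO 0.763. The position depended on the genes looked at. Over the 94 B-high genes with a gap of at least 2-fold the WT median was 0.69, and both WT libraries lay between the sets in 39 of them (41.5%), against 19 of the 75 A-high genes of that kind. On chromosome 1 the A-high genes placed both WT libraries on the side of set A in 17% and on that of set B in 22.7%. In the middle of chromosome 18 the B-high genes placed them on the side of set A in 73%, and METTL3 KO in 85.1%. Read by line, A-high genes had a median of 0.09 in e1, 0.19 in e4 and 0.12 in ko1-4 relative to WT (log2), and -0.57, -0.62 and -0.65 in ko2-3, rescuem2 and rescuem3. B-high genes had medians of -0.07, -0.18 and -0.07 in the clones of set A, and 0.61, 0.70 and 0.70 in those of set B.

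Gene groups are described by their counts beside the shares over all genes (6.55% A-high, 5.74% B-high, median difference -0.0048). Among 23 collagen genes compared, 4 were A-high and none B-high, with a median of 0.61 and 18 higher on average in set A. Besides Col6a3, Col1a2 (fibrillar collagen I, 1.78 to 5.47 against 1.06 to 1.47 CPM) and the joined entry of Col7a1 (anchoring fibrils, 6.78 to 10.6 against 0.385 to 1.03 CPM) were in the group. Col1a1 was not, because its e4 libraries (34 and 29.2 CPM) were below set B (45.1 to 144), although e1 and ko1-4 were at 1038 to 1418. Of the 23 collagen genes 5 lie in the marked stretches, Col6a3 on chromosome 1 among them, against 10.2% of all genes compared. The part of the stretches in the counts of gene groups was not tested. Of 34 other matrix genes and their proteases, 4 were A-high and 3 B-high. The laminin beta 1 gene Lamb1 was at 125 to 164 CPM in set A and 26 to 63 in set B, which is a difference of 1.74 (log2, SD 0.18 in A and 0.56 in B, n = 6 libraries of 3 clones each). Of 18 integrins, 4 were A-high and 2 B-high, with Itga6 at 17.1 to 24.6 against 8.02 to 10.3 CPM and Itga4 at 0.94 to 2.85 against 10.7 to 36.1.

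Genes of neuronal wiring included more B-high than A-high ones by count, but the list medians went both ways (log2, A minus B). They were -0.0092 for semaphorins, plexins and neuropilins, -0.126 for netrins and slits, and -0.0564 for synaptic adhesion genes. Cadherins were at 0.0232 and ephrins and Eph receptors at 0.0689. In that order 13 of 26, 5 of 14, 10 of 23, 7 of 11 and 10 of 17 genes were higher on average in set A. Of 26 semaphorins, plexins and neuropilins 2 were A-high and 5 B-high, including Sema5a (2.09 to 19 CPM in A, 45.6 to 72 in B) and Sema4f (0 to 1.09 and 2.2 to 3.02). Of 14 genes of the netrin, slit and repulsive guidance families, 2 were A-high and 3 B-high: the netrin gene Ntn1 was at 49.2 to 99.1 CPM in set A and 15.1 to 21.1 in set B, and Rgma at 4.48 to 10.2 and 26.2 to 36.9. These 2 guidance genes thus differed in opposite directions. Of 11 cadherins, 2 were B-high, Cdh11 (0.398 to 11.1 against 23.1 to 57.5 CPM) and the N-cadherin gene Cdh2 (157 to 339 against 364 to 479). Of 23 synaptic adhesion genes 2 were B-high, with the adhesion molecule gene Cadm2 at 0 to 0.298 CPM in set A and 1.59 to 3.42 in set B. The Cadm2 difference was -1.99 over the gene body and -0.25 in exon bins (log2). Of 17 ephrins and Eph receptors 1 was B-high.

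Ion channel and receptor genes were few among those compared. Of 23 potassium and HCN channel genes 1 was A-high and 4 B-high, with a median of -0.63. Kcnd3, a pore subunit of A-type potassium current, was at 0.0679 to 9.04 CPM in set A and 33.7 to 55.7 in set B, and the sodium-activated channel gene Kcnt2 at 1.69 to 4.91 and 5.62 to 18.8. Of 16 calcium and sodium channel genes 2 were B-high, led by Cacna1a, the pore of P/Q-type calcium channels (5.86 to 7.83 against 22 to 38 CPM). Of 11 glutamate and GABA receptor genes 3 were B-high and none A-high. They included the joined entries of the metabotropic receptor gene Grm8 (0 to 0.199 against 5.69 to 11.4 CPM) and the AMPA receptor gene Gria3 (7.26 to 16.4 against 27.6 to 47.6). The Grm8 difference was -3.89 over the gene body and -0.99 in exon bins (log2).

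Among signalling pathways, 8 of 34 Wnt ligands, receptors and inhibitors were A-high and 3 B-high. Of these 34 genes, 4 lie in the marked stretches of chromosomes 1, 2, 15 and 18, which hold 10.2% of all genes compared. Sfrp1, a secreted Wnt antagonist, was at 0 to 3.24 CPM in set A and 12 to 27.8 in set B. Lgr6, a receptor of Wnt-potentiating R-spondins, was at 14.4, 48.1 and 137 CPM in set A and 1.43, 1.7 and 4.17 in set B. Of 33 genes of TGF-beta, activin and BMP signalling 3 were A-high and 4 B-high, with the receptor gene Bmpr1b at 0 to 0.136 CPM in set A and 2.46 to 8.38 in set B and the activin-binding Fst at 0 to 0.475 and 1.27 to 3.64. The Bmpr1b difference was -3.21 over the gene body and -1.17 in exon bins (log2). Of 16 Notch pathway genes 2 were A-high and 3 B-high, among them the ligand gene Dll1 (0 to 0.215 against 0.607 to 0.883 CPM) and the target gene Hey2. Among 56 receptor tyrosine kinases and growth factors 6 were A-high and 5 B-high. Artn, a ligand of the GDNF family, was at 1.09 to 4.2 CPM in set A and 0 to 0.159 in set B, and the IGF-binding Igfbp2 at 2.31 to 8.39 and 14.9 to 46.7. Of the YAP and SRF targets 2 of 24 were A-high and 3 B-high. The matricellular Ccn2 was at 81.8 to 168 against 30.3 to 58 CPM and the angiomotin-like Amotl2 at 90.2 to 108 against 140 to 174, so these 2 targets differed in opposite directions.

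**Figure D5:**
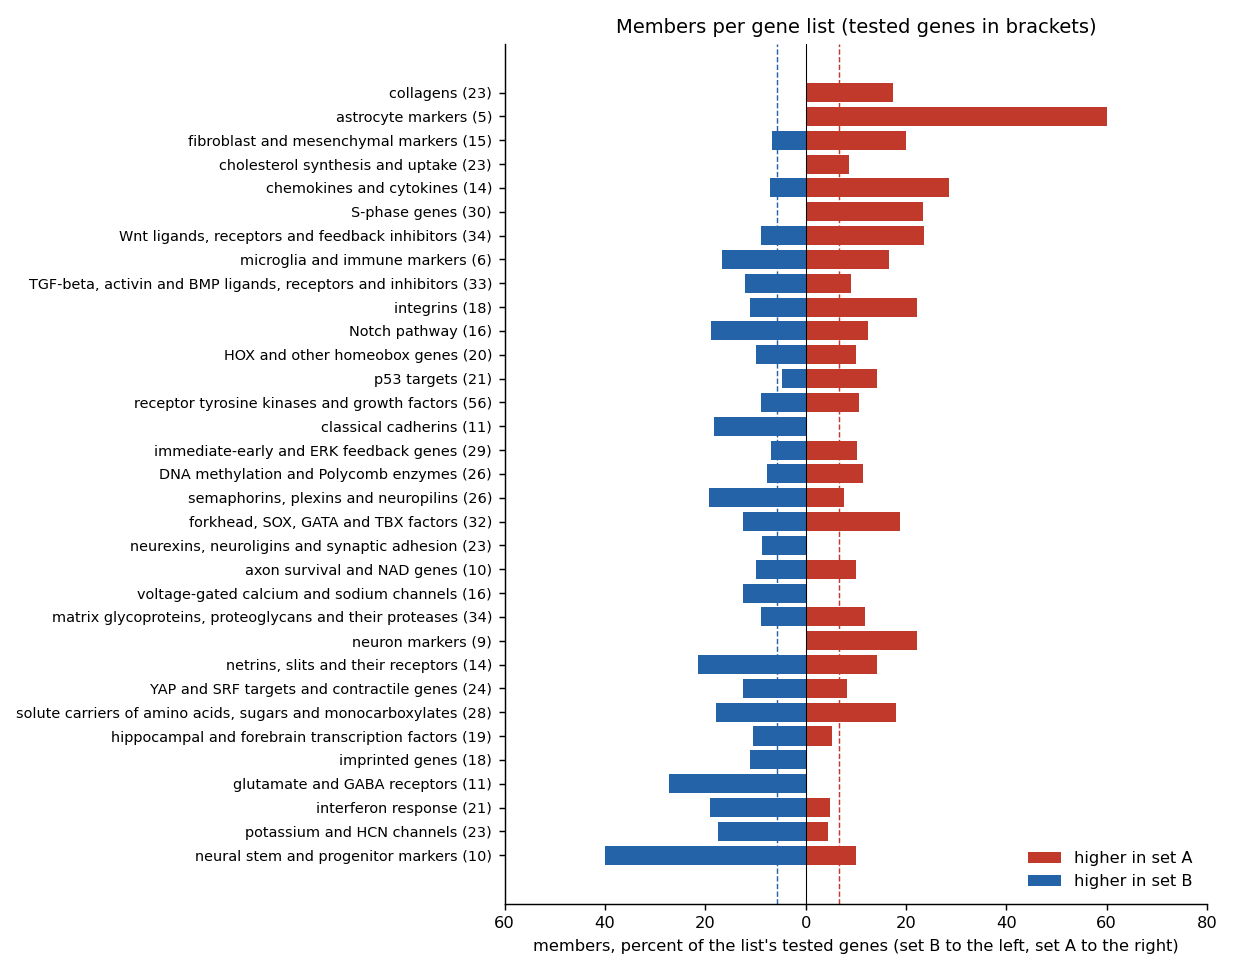
Share of the compared genes of each list (their number in brackets) that were A-high (red, to the right) or B-high (blue, to the left), in percent, for lists with at least 2 of the 1994 genes and ordered by their median difference; dashed lines mark 6.55% and 5.74%. Astrocyte markers, with 5 genes compared, have the longest red bar (60%), and neural stem and progenitor markers, with 10, the longest blue bar (40%).

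Among proliferation genes, 7 of 30 S-phase genes were A-high and none B-high, with a median of 0.23. The replicative helicase subunit Mcm3 was at 95.4 to 127 CPM in set A and 56.7 to 78.7 in set B, and the helicase loader Cdc6 at 18 to 21 and 12.2 to 14.9. None of 24 G2/M genes was in either group. Of the 30 S-phase genes 2 lie in the marked stretches, Mcm3 on chromosome 1 among them. Cholesterol synthesis and uptake genes had a median of 0.41, with 23 of 23 higher on average in set A, although only 2 were A-high, the regulator Srebf2 (229 to 339 against 152 to 207 CPM) and Hsd17b7 (25.1 to 62.4 against 14 to 20). With library totals as the scaling the differences were smaller, from 0.67 to 0.37 for Srebf2, 0.77 to 0.47 for Mcm3 and 0.47 to 0.18 for Cdc6 (log2).

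Immune and epigenetic genes were mixed. Of 21 interferon response genes 1 was A-high and 4 B-high, with Ifi44 at 0 to 0.108 against 0.303 to 0.705 CPM and the MHC class I gene H2-D1 at 18.8 to 51.5 against 10.8 to 15.3. Of 14 chemokines and cytokines 4 were A-high and 1 B-high, with Ccl2 at 2.35 to 6.06 against 0.0794 to 0.839 CPM and Csf1 at 69.6 to 87 against 114 to 138. Ccl2 was higher still in WT (101 and 35.1 CPM) and METTL3 KO (79.5 and 58.3), so neither set resembled those lines for it. Of 18 imprinted genes 2 were B-high, Peg3 and the paternally expressed Mkrn3 (0 to 0.522 against 0.641 to 1.14 CPM), and 2 of 18 were higher on average in set A, with a median of -0.33. Of 26 DNA methylation and Polycomb genes 3 were A-high and 2 B-high, with the de novo methyltransferase gene Dnmt3a at 23.5 to 33.3 against 14.8 to 17.2 CPM. Of 19 m6A writers, erasers and readers 1 was B-high and none A-high.

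Summed markers of other cell types moved with the sets in part. The 11 astrocyte markers counted summed to 78.3 to 105 CPM in set A and 39.6 to 65.8 in set B, and 10 markers of oligodendrocytes and their precursors to 110 to 146 and 69.7 to 94.8. Of 12 astrocyte markers 9 were under a mean of 1 CPM, Gfap among them (0 to 0.157 CPM in A, 0 to 0.379 in B), and of 12 oligodendrocyte markers 10 were. The connexin gene Gja1 made up most of the astrocyte sum (67.2 to 82.6 against 36.6 to 59.4 CPM), and the transporter gene Slc1a3 was at 1.51 to 24.5 against 0 to 0.419. Of 12 microglial and immune markers 7 were under 1 CPM and Ptprc was not detected in either set. The 16 fibroblast markers counted summed to 2720 to 5250 CPM in set A and 2560 to 3260 in set B. Of 10 neural stem and progenitor markers compared 1 was A-high and 4 B-high, including the RNA-binding Msi1 (2.93 to 4.74 against 10 to 20 CPM). Of 9 neuron markers compared 2 were A-high and 0 B-high, but only 4 were higher on average in set A, with a median difference of -0.107 (log2). The 2 A-high markers were Uchl1 (6.99 to 29.1 against 1.09 to 2.27 CPM) and Map2 (92.8 to 138 against 41.2 to 85.9). In bulk libraries fewer cells of a type and less RNA per cell cannot be told apart, and the part of these cell types in the differences was not tested.

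METTL3 KO was compared with WT by edgeR's quasi-likelihood test, with p-values adjusted over all genes by the Benjamini-Hochberg method and a threshold of 0.05. Of all genes 1814 were higher in METTL3 KO (11.2%) and 1907 lower (11.8%). Of A-high genes 125 were higher (11.8%) and 192 lower (18.1%), and of B-high genes 152 were higher (16.3%) and 120 lower (12.9%). In all 589 of the 1994 genes passed (29.5%), against 22% of the genes outside them. The spread in this fit came from all 16 libraries, and the rule favours genes with little spread inside a set. These shares are therefore read as a description. With only the lines compared in the fit, 428 of the 1994 genes passed, and 19.6% of all genes in that fit. The median change was -0.08 for A-high, 0.06 for B-high and 0.01 for all genes (log2). METTL3 KO is 1 clone, so the edit and the clone cannot be told apart. Fewer of the 1994 genes passed without the first WT library (382), without the first METTL3 KO library (374) or without the second (341).

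The 3 genes of smallest p were taken from each of the A-high and B-high groups. Stox2 rose by 3.48 (log2, SE 0.25, edgeR adjusted p = 1.52e-07), the nucleoredoxin gene Nxn by 1.96 (SE 0.15, edgeR adjusted p = 1.94e-07) and the scaffold gene Iqgap2 by 1.90 (SE 0.14, edgeR adjusted p = 2.17e-07), all B-high. Nxn was at 81.3 and 75.2 CPM in METTL3 KO and 19 and 21.2 in WT, beyond the range of set B (28.6 to 46.3). Among A-high genes the growth factor gene Tgfb3 rose by 2.25 (SE 0.17, edgeR adjusted p = 1.94e-07) and the collagen receptor gene Mrc2 by 2.26 (SE 0.19, edgeR adjusted p = 7.62e-07), while the olfactomedin-like Olfml2b fell by 3.08 (SE 0.31, edgeR adjusted p = 5.3e-06). Tgfb3 and Mrc2 went past the range of set A, and Olfml2b fell below that of set B. Of the other genes of wide gap described above, Emilin1 and Lpar1 rose and Aqp1, Pde8a, Pkp1, Alkal1 and Lama2 fell in METTL3 KO by the same test, with changes of 1.40, 1.25, -1.10, -0.64, -0.67, -3.02 and -1.33 (log2) in that order.

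Clones of different genotype inside each set were compared in the same fit. The results are read as a description, because the rule favours genes with little spread inside a set. Each comparison held 1 RBM45 KO clone, so genotype and clone cannot be told apart. In set A, 160 of the 1994 genes differed between the RBM45 KO clone ko1-4 and the controls e1 and e4 (8.02%), against 6.6% of all genes. In set B, 55 differed between the rescue clones and the RBM45 KO clone ko2-3 (2.76%), against 1.47% of all genes. Of these 55, 28 B-high genes were higher and 22 A-high genes lower in the rescue clones, with 2 A-high genes higher and 3 B-high genes lower. With only the lines of the set in the fit, 103 and 169 of the 1994 genes differed, beside 3.82% and 9.38% of all genes in those fits. The counts of 160 and 55 also rested on few libraries. The first fell to 104 without the second library of e1, 47 without the first library of ko1-4 and 76 without the second. The other fell to 4 and 5 without the first or second library of ko2-3, 34 and 35 without the first or second of rescuem2, and 23 without the first of rescuem3.

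Promoter letters were counted over all matched genes for comparison with the 4 windows shown. RefSeq promoters were found for 704 A-high, 585 B-high and 9865 of all genes compared. TGANTCA was in 6.68% of A-high, 3.59% of B-high and 4.22% of all windows, CANNTG in 61.4%, 54.7% and 56.9%, and GGAATG in 11.4%, 13% and 10.8%. GGGCGG was in 56.5%, 58.8% and 58.1%, CCAAT in 33.5%, 37.6% and 36.5%, TATAAA in 7.1%, 5.98% and 6.23%, and TGACGTCA in 2.98%, 2.22% and 2.63%. No test was made of these shares. The median GC content was 60.4%, 62% and 60%.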

How the data were processed

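RNA depleted of ribosomal RNA was sequenced in 16 libraries, and the kit was non-directional per the labels' protocols. The submitters' processing notes name the build mm10 and HISAT2 2.1.0, Subread 1.6.3 with featureCounts 1.6.5, deepTools 3.2.1, HOMER 4.11.1, and DESeq2 1.32.0 in R 3.6.0. Raw fragment counts per gene body, exon bin and intron were deposited by the authors, as featureCounts 1.6.3 output per the file headers. A fragment was assigned only on the feature's own strand. Because the kit does not mark strand, a gene and its antisense partner still cannot be told apart (16474 genes). Overlapping genes were joined in 1397 entries.

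Columns were matched to samples by name, and e1 and e4 were taken as the controls by elimination. Counts were scaled by TMM (edgeR 4.0.16, limma 3.58.1, R 4.3.3), filtered with filterByExpr and read as log2(CPM + 0.5). Lines were tested by edgeR's quasi-likelihood test on all 16 libraries in 8 lines, with Benjamini-Hochberg adjustment over 16223 genes at 0.05, a method first tested on simulated data. DESeq2 1.42.0 was an alternative. The genes, their division and the 39 gene lists were chosen with earlier results of these data known. Genes were named by rule: the 12 of widest gap in each direction with a median of at least 2 CPM (predicted, pseudogene and joined entries left out), up to 2 per list, those nearest the threshold, and the 3 of smallest p per direction for METTL3 KO against WT. Some genes these rules pick are not reported here. Others are said to have been chosen after their values were seen, or serve as checks (markers, Col1a1). RefSeq promoters were read by symbol. Library totals give counting error only, and other alternatives are in the closing section.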

Additional observations from a re-analysis of the deposited data

Results flagged for a closer look

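Among the genes of widest gap and the 2 targeted genes, 52 groups of 6 libraries were looked at for a library far from the others of its set, and 6 had one; chance flags about 1 in 20 groups. In set B, Pde8a was at 4.68 CPM in the second rescuem2 library (59 counts), against a median of 3.98, and Hdx at 4.6 CPM in the same library (58 counts), against a median of 7.04. The other 4 values were 1 count each in a set otherwise at 0: Bcl6b at 0.0641 CPM in the second rescuem3 library, Hdx and Dach1 at 0.0623 CPM each in the first e1 library, and Armcx1 at 0.0522 CPM in the second e1 library.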

How the results depend on the processing

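Of the 285 alternatives for 95 named genes (DESeq2 size factors, library totals, exon bins) none reversed a difference between the sets, but 22 genes in exon bins and 24 with library totals moved by more than the spread within a set, for example Cadm2 from -1.99 to -0.25 and Ralyl from -3.23 to -0.88 in exon bins. The 1062 A-high and 932 B-high genes became 387 and 1582 with library totals, 75 and 94 with a gap of at least 2-fold, and 1701 and 1532 without clone e4. The B-high count was 1495 without clone ko2-3, and 679 A-high genes lay outside the 5 stretches (chosen after seeing the data). Leaving out 1 library gave 1111 to 1260 A-high and 966 to 1131 B-high genes. Fewer libraries or clones can only add genes under the rule. Leaving out 1 library gave 341 to 520 genes for METTL3 KO against WT, 47 to 178 for ko1-4 against e1 and e4, and 4 to 45 for the rescue clones against ko2-3. With only the lines compared in the fit the last 2 counts were 103 and 169, beside 3.82% and 9.38% of all genes in those fits. The rescue count was 123 with no filter (2.68% of all genes) and 15 in exon bins (0.306%). The mean position of METTL3 KO (0.758, SD 0.00483) was 0.751 with a pseudocount of 0.1, 0.874 with library totals and 0.811 in exon bins. Why these values moved was not tested, apart from the fewer libraries or genes in some of the fits.

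Deviations of same-numbered libraries from their line means correlated at -0.365 to 0.554 (median 0.105) over 28 pairs of lines, 14 of them over 0.1. Whether same-numbered libraries shared more than a number was not tested. With the replicate block the 3 counts were 616, 172 and 73. Genes under about 3 counts a library (0.157 to 0.432 CPM) were at the limit of detection.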

Other observations

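Y-linked genes set clone e4 apart from every other line, across the 2 sets. The demethylase gene Kdm5d and the translation factor gene Eif2s3y had 0 counts in both e4 libraries, where Kdm5d was at 13.7 to 16 CPM in e1 and ko1-4 and 13.6 to 17.8 in set B. WT held 6.48 and 6.89 CPM of Kdm5d and METTL3 KO 4.5 and 5.3, lower than the 5 other clones. None of the 6 Y-linked genes compared was A-high or B-high, and for Kdm5d the levels of e1 and ko1-4 overlapped those of set B.

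The type I collagen gene Col1a1 divided set A itself. It was at 1038 and 1055 CPM in e1, 1418 and 1374 in ko1-4, 34 and 29.2 in e4, 45.1 to 144 in set B, 89.2 and 121 in WT and 358 and 329 in METTL3 KO. The Cas9 control e1 and the RBM45 KO clone ko1-4 were thus both above every library of the other lines, although they differ in genotype.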
